A study of Mus musculus with 40 samples.

Results

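The cytosolic ribosomal protein genes were followed across the livers of 40 mice. Members were the rows of the deposited expression table whose symbol has the form of a ribosomal protein gene (Rpl, Rps or Rplp with a number and, for some, a short suffix) or is Rpsa, with a mean of at least 10 normalized counts over all libraries. All 78 symbols of that form passed the minimum, out of 17724 genes in the table and 13776 genes that passed the same minimum and were tested. Of the 78 members, 47 encode proteins of the large subunit and 31 of the small subunit, and 72 are canonical subunits while 6 are paralogs (Rpl3l, Rpl7l1, Rpl22l1, Rpl36al, Rps4l and Rps27l).

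RNA was sequenced from C57BL/6NJ livers in 8 groups of 5 mice: d3/d3 mice, which are homozygous for the d3 allele of the growth hormone receptor gene Ghr, and wild-type (WT) mice, each as males and females, and each on 40% calorie restriction (CR) or fed ad libitum (AL). Per the treatment protocol, restriction followed weaning and collection was at roughly 2 months of age, whereas the extraction protocol names an age of 28 to 34 days. The cohort was bred by fertilizing C57BL/6NJ oocytes in vitro with sperm of d3/d3 males. Sample titles carry running numbers of unstated meaning. In d3/d3 mice every CR library has a higher number than every AL library of either sex, so that diet and this order cannot be told apart there. Among CR males every d3/d3 library has a higher number (87 to 150) than every WT library (41 to 86). Genotype and this order cannot be told apart in that pair.

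Cytosolic ribosomes consist of a small subunit, which reads the mRNA, and a large subunit, which forms peptide bonds, and each subunit holds a fixed set of proteins on an rRNA core. Most ribosomal protein mRNAs begin with a cytosine followed by a run of pyrimidines, the terminal oligopyrimidine (TOP) tract, through which mTORC1 signalling controls their translation and, with the RNA-binding protein Larp1, their stability. In liver, ribosome content is known to follow food intake.

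The first bases of some members show the TOP tract. Windows of a few members named below are given, most of them chosen with the tract. RefSeq promoters on GRCm38.p6 were at hand for 59 of the 78 members. Each line gives 30 bases before and 20 bases from the annotated start, 5′ to 3′ on the gene's strand. Capitals mark a C followed by 4 or more pyrimidines (C or T) that begins within 5 bases of the annotated start, searched on the transcript strand only. Rps6 lies on the minus strand (chr4:86857348-86857397), Rpl38 on the plus strand (chr11:114668550-114668599), Rps27 on the minus strand (chr3:90213629-90213678), Rps10 on the minus strand (chr17:27635225-27635274), Rpl22l1 on the plus strand (chr3:28805478-28805527) and Rpl7l1 on the minus strand (chr17:46782637-46782686).
Rps6: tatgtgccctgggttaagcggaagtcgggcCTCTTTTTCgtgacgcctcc
Rpl38: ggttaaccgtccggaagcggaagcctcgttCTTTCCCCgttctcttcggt
Rps27: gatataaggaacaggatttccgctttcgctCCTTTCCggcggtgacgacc
Rps10: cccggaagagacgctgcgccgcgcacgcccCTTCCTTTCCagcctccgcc
Rpl22l1: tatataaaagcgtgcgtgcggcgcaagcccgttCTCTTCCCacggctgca
Rpl7l1: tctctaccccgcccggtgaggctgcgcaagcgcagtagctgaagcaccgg

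In Rps6, Rpl38, Rps27 and Rps10 the rule is met at the annotated start itself, and the capitals begin there. Pyrimidines also lie directly before the start in each of these windows, so the whole pyrimidine run is longer than the capitals. In Rpl22l1 the tract begins 3 bases after the annotated start, and the Rpl7l1 window holds none near the start. The Rplp0 window, not shown, holds none there either. Over the table, 18.3% of the 71 member promoters met the rule at the annotated start itself, against 2.47% of the 32780 other promoters. Within 5 bases of the start the shares were 42.3% and 18.3%. Averaged over the 4 diet pairs, the median log2 fold change was 0.28 over the 28 members that met the rule within 5 bases. It was 0.29 over the 31 that did not. The rule depends on the annotated start, which can differ from the start used in liver, and 18.3% of other promoters also met it. A member that did not meet it may still have a TOP tract. These medians therefore cannot compare members with and without a TOP tract.

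Levels between members were compared per kilobase of the principal transcript in GENCODE M21. Rps2, a core small-subunit protein at the mRNA entry channel, was highest at 24194 normalized counts per kilobase, followed by Rplp1 of the P-stalk (19108), Rpl41 (16978), Rps28 (15716) and Rps29 (15155). The lowest were Rps10 (81.3), Rps14 (206.8), Rpl12 (244.9), Rpl3l (261.3) and Rpl3 (269.5). The Rpl3l mean rests on a few muscle-rich libraries: it was 165 per kilobase without the highest library, and the median over the 40 libraries was 5.74. A low value does not show that a subunit is scarce. Kallisto divides reads between near-identical transcripts, and copies of ribosomal protein genes carried much of the signal in places: Rpl10-ps3 averaged 10766 normalized counts beside 7752 for Rpl10, and Rpl10a-ps1 averaged 1682 beside 327.0 for Rpl10a. Copies named after Rps10 and Rpl3, which are among the lowest members, averaged no more than 1.19 and 1.61 normalized counts. Why the lowest members are low was not tested. The table has no row under the canonical symbols Rpl8, Rpl36, Rpl37 and Rps23, while the copies Rps23-ps1 and Rpl37rt averaged 3491 and 677.7 normalized counts. Values of single members with such copies are therefore uncertain.

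Libraries held 21132490 to 44195300 recovered reads, with a median of 36347580. Hepatocyte markers were abundant in every library (summed level of 9 genes, 2199521 to 5675001 normalized counts). Ghr was at 5591 to 17207 normalized counts in d3/d3 livers and 7040 to 20904 in WT livers; the gene-level table cannot show whether exon 3 is present, so it does not check the genotype labels. Skeletal muscle transcripts varied widely, with a summed level of 16 markers from 24 to 2231506 normalized counts and 17 muscle-rich libraries (mean log2 marker level of 8 or more). In bulk RNA, fewer cells of a type and less RNA per cell cannot be told apart.

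The summed level of the 78 members was higher on CR than on AL in 3 of the 4 combinations of genotype and sex. In d3/d3 males it averaged 464803 ± 47179 normalized counts on CR and 376403 ± 26660 on AL (SD, n = 5 each). In d3/d3 females the averages were 539736 ± 84307 on CR and 387439 ± 28162 on AL, and in WT males 529579 ± 68848 on CR and 410760 ± 43193 on AL. WT females gave 442475 ± 43448 on CR and 451985 ± 64954 on AL, a difference smaller than the spread. CR and AL libraries did not overlap in d3/d3 females (466795 to 684266 against 357330 to 431936). They overlapped in d3/d3 males, where the lowest CR library had 415942 and the highest AL library 416258, and in WT males, where the lowest CR library had 417585 and the highest AL library 464322. No test is given for a sum over members chosen with earlier results known.

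The share of all normalized counts taken by the members was 1.31% to 1.67% in d3/d3 males on CR and 0.86% to 1.00% on AL. In d3/d3 females it was 1.53% to 1.77% on CR and 1.02% to 1.31% on AL. The ranges were 1.34% to 1.59% on CR and 0.87% to 1.17% on AL in WT males, and 1.34% to 1.51% on CR and 1.09% to 1.43% on AL in WT females. The share was separate between diets in the first 3 of these pairs. WT females overlapped through a single AL library, replicate 3, whose share was 1.43%; the other AL libraries of that group lay at or below 1.21%. The share and the summed level differ because the total of the normalized counts also moved with diet: in WT females it averaged 31191539 ± 3004186 on CR and 37058280 ± 1509023 on AL (SD, n = 5 each). In d3/d3 females it averaged 33704699 ± 3215553 on CR and 34003634 ± 3937028 on AL, a difference within the spread. The total averaged 32781394 ± 2200063 on CR and 40127742 ± 1908567 on AL in d3/d3 males. In WT males it averaged 35093760 ± 2704243 on CR and 42379486 ± 3304901 on AL. The male shares on CR were thus taken of a smaller total.

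**Figure D1:**
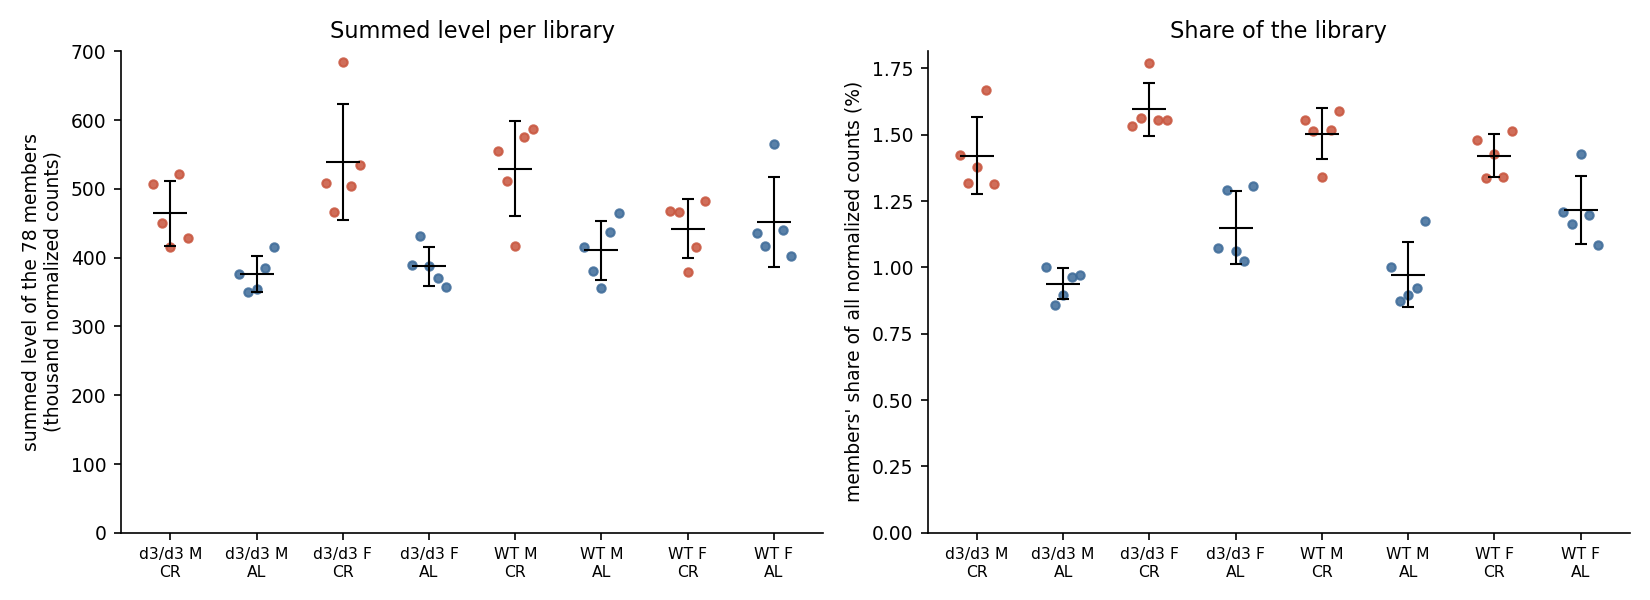
Summed level of the 78 members in units of 1000 normalized counts (left) and their share of all normalized counts in percent (right), for 5 libraries in each of 8 groups. Points are libraries and bars are the mean ± SD; in d3/d3 females every CR point lies above every AL point in both panels, and WT females on CR and AL overlap in both.

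On calorie restriction many members were higher in d3/d3 mice and WT males, and 1 in WT females. With limma on log2(value + 1) and Benjamini-Hochberg adjustment over all genes tested, at a threshold of 0.05, 33 of 78 members rose on CR in d3/d3 males, beside 9.0% of all genes tested. Of the members, 60 rose in d3/d3 females, beside 8.33% of all genes, and in WT males 47 rose, beside 10.1%. In WT females 1 rose, beside 4.56%. Members that fell numbered 0 in d3/d3 males, 1 in d3/d3 females, 1 in WT males and 1 in WT females, beside 10.5%, 9.55%, 11.4% and 7.11% of all genes. Median log2 fold changes over the members were 0.28, 0.46, 0.36 and -0.02 in that order of groups, where the medians over all genes tested were 0.03, 0.02, 0.04 and 0.02. Averaged over the 4 pairs, 66 members rose and 1 fell, beside 23.2% and 22.6% of all genes, with a median of 0.28 over the members and 0.04 over all genes.

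Both subunits took part. In the average over pairs 39 of 47 large-subunit members and 27 of 31 small-subunit members rose, with medians of 0.26 and 0.30. In d3/d3 females the medians were 0.44 for the large and 0.51 for the small subunit. The CR and AL libraries did not overlap, with every CR library above every AL library, for 26 members in d3/d3 males (7.09% of all genes tested), 48 in d3/d3 females (4.75%), 9 in WT males (6.42%) and 0 in WT females (4.0%). In WT males the CR and AL groups thus overlapped for most members that passed the test. 32 members rose in each of d3/d3 males, d3/d3 females and WT males, beside 2.74% of all genes tested, and 16 rose in no pair, beside 81.6%.

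**Figure D2:**
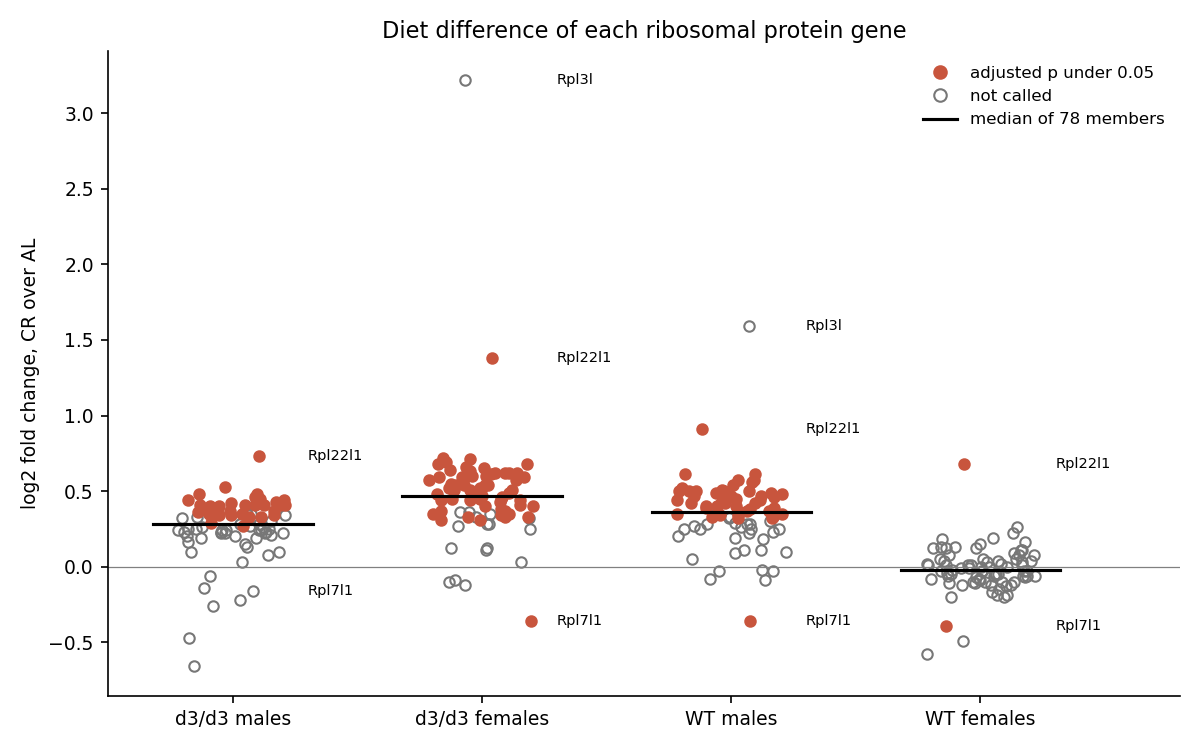
Log2 fold change of CR over AL for each of the 78 members in the 4 combinations of genotype and sex (from limma on log2(normalized count + 1)). Filled points passed an adjusted p of 0.05, open points did not, and lines mark the medians of 0.28, 0.46, 0.36 and -0.02; Rpl22l1 is filled in all 4 columns.

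The count in d3/d3 males rested on few libraries. It was 15 without AL replicate 2 or without CR replicate 4, 17 without AL replicate 3 and 19 without CR replicate 1. Without the muscle-rich libraries, a fit with 2 CR and 3 AL d3/d3 males, the count was 2, while the median stayed at 0.26. The share of all genes called in these fits is not given. A loss of calls over all genes therefore cannot be told apart from one in the members. Median changes of the muscle markers had the same signs as those of the members. The marker medians on the log2 scale, CR over AL, were 2.53 in d3/d3 males, 3.26 in d3/d3 females, 2.68 in WT males and -0.04 in WT females. In each pair 0 of 16 markers were called. Library by library, the mean log2 level of the members had a Pearson correlation of 0.09 with the mean log2 marker level over the 40 libraries. Muscle-rich libraries numbered 3 of 5 on CR and 2 of 5 on AL in d3/d3 males, 3 and 2 in d3/d3 females, 2 and 1 in WT males, and 2 and 2 in WT females. With the muscle level of each library as a covariate the member medians were 0.31, 0.50, 0.39 and -0.02, and without the muscle-rich libraries they were 0.26, 0.58, 0.46 and -0.02. Of 7 cholangiocyte markers, 4 rose and 2 fell in the average over pairs (median 0.76; Krt7 0.88, Sox9 -1.15). Of 11 Kupffer cell markers 9 fell in the same average (median -0.52), and of 9 hepatocyte markers 5 fell (median -0.42). Hepatocyte markers that were not called included Alb (0.00) and Trf (-0.01). Of all genes tested, 23.2% rose and 22.6% fell in this average. The part of these cell types in the members' change was not tested.

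Rps29, a zinc-binding protein of the small-subunit head, was at 6280, 5720, 5225, 7425 and 5292 normalized counts in d3/d3 males on CR, against 4540, 3982, 4094, 4613 and 4756 on AL. In WT females it was at 6807, 6738, 5421, 5506 and 6957 on CR, against 5324, 5549, 8190, 5213 and 5008 on AL. The groups were separate in d3/d3 males and overlapped in WT females, where AL replicate 3 was the highest of all 10 libraries. The log2 fold change was 0.44 ± 0.13 (SE) in d3/d3 males (limma adjusted p = 0.0188) and 0.12 in WT females (adjusted p = 0.629). Rps29 had the second-largest average increase among the members that passed, 0.47 (adjusted p = 5.2e-07), and the call in d3/d3 males was lost without AL replicate 2, without CR replicate 4 and without the muscle-rich libraries.

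Rpsa, a small-subunit protein that also exists as the laminin receptor, was at 17824, 15404, 15002, 18362 and 15275 normalized counts in d3/d3 males on CR, against 11412, 11449, 11494, 11217 and 13067 on AL. In d3/d3 females it was at 17291, 15603, 23491, 16026 and 20903 on CR, against 12260, 14402, 12087, 12196 and 10611 on AL. Neither pair overlapped, and the log2 fold changes were 0.48 (adjusted p = 0.00428) and 0.59 (adjusted p = 0.000735). Rpl38, Rps21 and Rpl39, small proteins of the large, small and large subunit, averaged log2 fold changes of 0.44, 0.41 and 0.41 over the 4 pairs, each past the threshold in limma.

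Rps2 was at 28271, 25973, 23075, 26065 and 23283 normalized counts in d3/d3 males on CR, against 18390, 19187, 18512, 20628 and 18560 on AL, with no overlap. In WT males it was at 29419, 27258, 22245, 31385 and 30845 on CR, against 19769, 20163, 18732, 24362 and 22297 on AL, where CR replicate 3 fell within the AL range. It rose in both pairs by 0.41 and 0.42 on the log2 scale (adjusted p = 0.022 and 0.017).

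Rplp0, the P-stalk base often taken as a reference gene, rose in the average over pairs by 0.17 (adjusted p = 0.00197) and in d3/d3 females by 0.35 (adjusted p = 0.00582). There it was at 13483, 15413, 17561, 11869 and 15420 normalized counts on CR, against 11141, 12320, 12152, 11458 and 10335 on AL, and CR replicate 4 lay inside the AL range. Other members had average log2 fold changes between 0.14 and 0.35: Rps6, the classic S6 kinase substrate, 0.15 (adjusted p = 0.0285), Rps3 at the mRNA entry site 0.14 (adjusted p = 0.0349), Rpl7 0.16 (adjusted p = 0.0128), Rps4x 0.35 (adjusted p = 2.83e-06), Rps27 0.21 (adjusted p = 0.00683) and Rpl36a 0.29 (adjusted p = 7.33e-05).

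The 11 members not called in the average over pairs were Rpl3, Rpl10, Rpl10a, Rpl12, Rpl18, Rpl27, Rps10, Rps14, Rps18 and the paralogs Rpl3l and Rps4l. All but Rpl10 and Rpl18 are among the 11 members with a mean under 1000 normalized counts, of which Rps12 and Rpl5 rose. Rps14 was at 135, 87.3, 102, 52.6 and 79.6 normalized counts in d3/d3 males on CR, against 125, 120, 144, 132 and 179 on AL; its log2 fold change of -0.66 did not pass (adjusted p = 0.0524), and the groups overlapped. Rpl3, at the peptidyl transferase centre, had an average log2 fold change of 0.00 (adjusted p = 0.982). When the values of 16 copies were added to their parent genes, 68 members rose in the average over pairs, and the medians were 0.29 in d3/d3 males, 0.47 in d3/d3 females, 0.37 in WT males and -0.03 in WT females.

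The paralogs held the largest called increase and the only called decrease. Rpl22l1 (chr3:28805436-28807424, GRCm38) encodes a close relative of Rpl22, and it was the member called higher on CR in all 4 pairs. It was at 1503, 1053, 1062, 1549 and 1399 normalized counts in d3/d3 males on CR, against 821, 751, 793, 748 and 783 on AL. In d3/d3 females it was at 1684, 1635, 1992, 1450 and 1364 on CR, against 602, 527, 677, 719 and 595 on AL. Both pairs were separated by a wide gap.

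In WT males Rpl22l1 was at 1717, 1553, 1316, 2086 and 1849 normalized counts on CR, against 724, 774, 872, 1010 and 1159 on AL. In WT females it was at 1612, 1428, 1088, 1293 and 1394 on CR, against 591, 833, 1263, 881 and 792 on AL. The WT males did not overlap, and the WT females overlapped through AL replicate 3. Log2 fold changes were 0.73, 1.38, 0.91 and 0.68 in d3/d3 males, d3/d3 females, WT males and WT females (adjusted p = 0.000642, 7.04e-08, 3.65e-05 and 0.00318), each the largest among the members called in that pair.

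Rpl22 itself passed the test in 3 of the 4 pairs. In WT females it was at 3427, 3290, 2881, 3101 and 3616 normalized counts on CR, against 3490, 3625, 3997, 3746 and 3211 on AL, with overlap and no call (log2 fold change -0.15, adjusted p = 0.293). It rose in d3/d3 males (0.27, adjusted p = 0.0266), d3/d3 females (0.33, adjusted p = 0.00765) and WT males (0.37, adjusted p = 0.00203). The Rpl22l1 value, as a percentage of the Rpl22 value in the same library, averaged 37.4% ± 3.3 on CR and 27.0% ± 1.63 on AL in d3/d3 males (SD, n = 5 each). It averaged 41.3% ± 2.97 and 20.2% ± 3.79 in d3/d3 females on CR and AL, 42.8% ± 4.75 and 30.1% ± 7.53 in WT males, and 41.7% ± 3.76 and 23.9% ± 5.23 in WT females. The CR and AL libraries did not overlap in any of the 4 pairs, and the narrowest gap was in WT males (39.5% on CR against 38.5% on AL). Library scaling cancels in this percentage, and the transcripts are of like length (552 and 474 bases).

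Rpl7l1 (chr17:46773907-46782672, GRCm38), a relative of Rpl7, was the only member that fell in any diet comparison. It was at 1664, 1244, 2059, 1629 and 1604 normalized counts in d3/d3 females on CR, against 2017, 2200, 2263, 2088 and 1825 on AL. In WT males it was at 1790, 1949, 1531, 1875 and 1781 on CR, against 2221, 1950, 2139, 2626 and 2592 on AL. WT males were barely separate, and d3/d3 females overlapped. In WT females it was at 1722, 1823, 1154, 1462 and 1448 on CR, against 1874, 1839, 2235, 1869 and 2074 on AL, with no overlap.

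The log2 fold changes of Rpl7l1 were -0.36, -0.36 and -0.39 in d3/d3 females, WT males and WT females (adjusted p = 0.023, 0.0168 and 0.0187), and -0.16 in d3/d3 males (adjusted p = 0.351). The average over pairs was -0.32 (adjusted p = 1.74e-05). The single-pair calls were lost without AL replicate 2, AL replicate 3 or CR replicate 2 in d3/d3 females, without AL replicate 4 or CR replicate 3 in WT males, and without AL replicate 3 or CR replicate 3 in WT females. All 3 were lost without the muscle-rich libraries, where the log2 fold changes were -0.20, -0.27 and -0.26. As a percentage of Rpl7, Rpl7l1 averaged 14.7% ± 1.37 on CR and 19.4% ± 1.5 on AL in d3/d3 males, 13.3% ± 0.796 and 20.7% ± 1.05 in d3/d3 females, 15.1% ± 1.55 and 23.6% ± 1.65 in WT males, and 15% ± 1.58 and 17.5% ± 1.49 in WT females (SD, n = 5 each), with overlap in WT females alone.

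**Figure D3:**
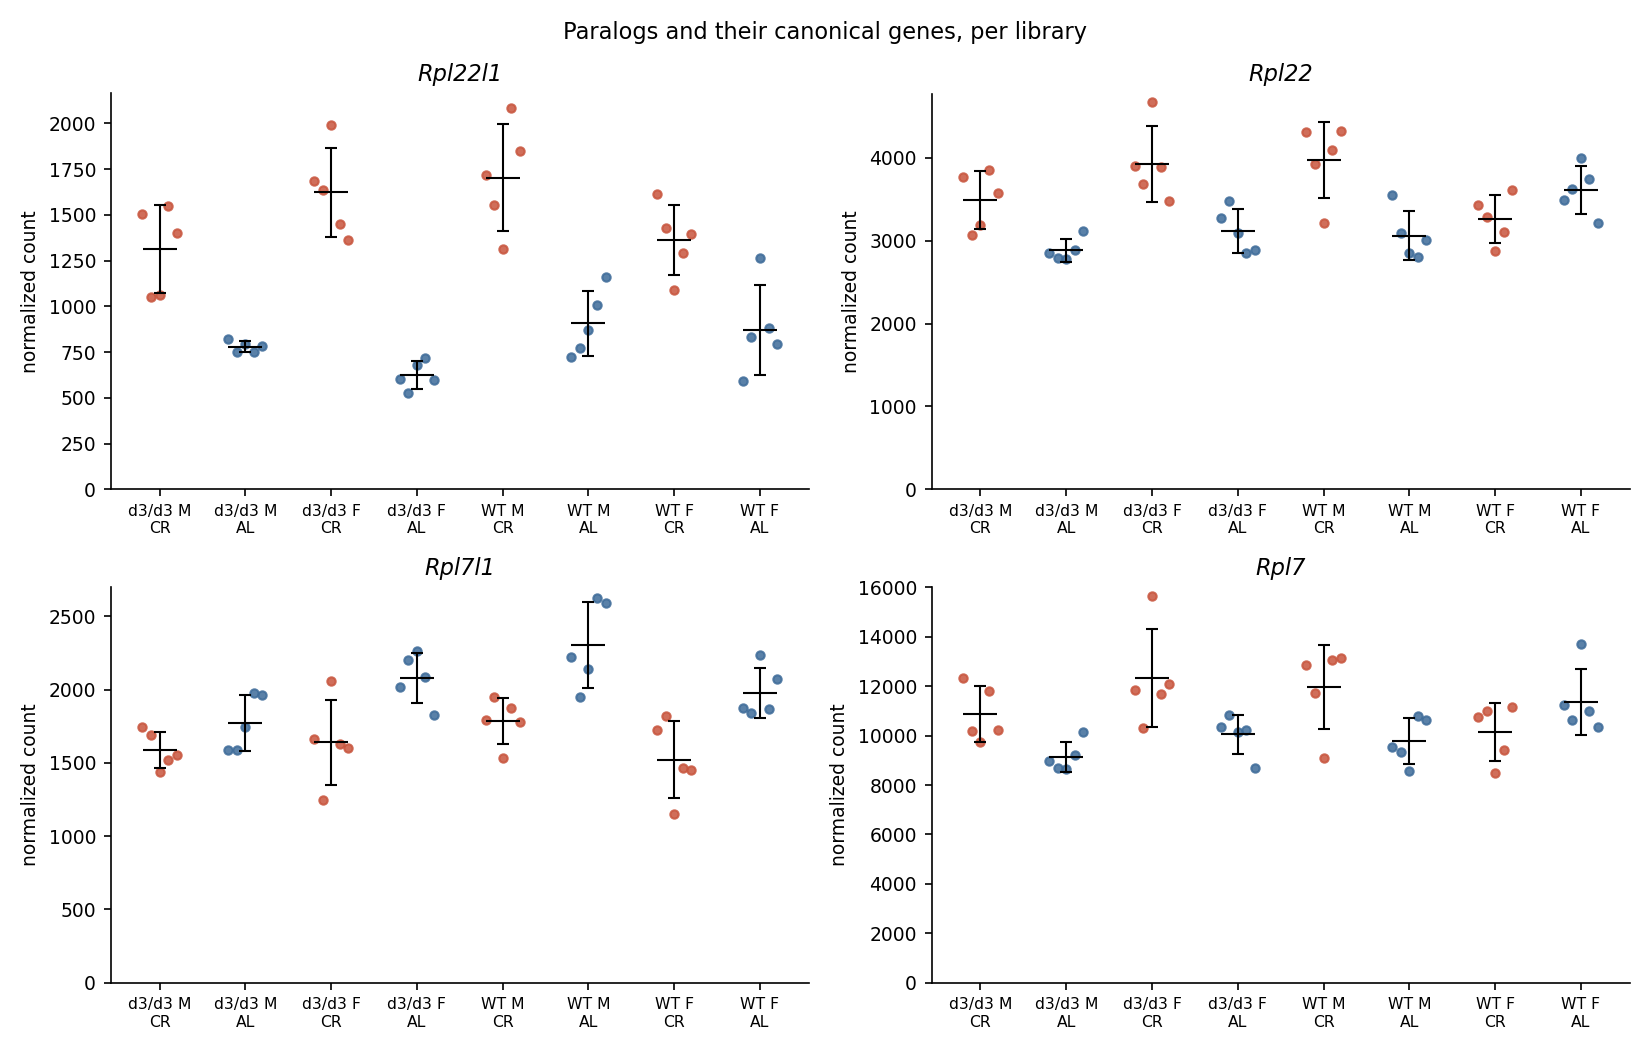
Normalized counts of Rpl22l1, Rpl22, Rpl7l1 and Rpl7 for 5 libraries in each of 8 groups, with the mean ± SD. Rpl22l1 on CR averaged 1313, 1625, 1704 and 1363 normalized counts in d3/d3 males, d3/d3 females, WT males and WT females, against 779, 624, 908 and 872 on AL, while Rpl7l1 was lower on CR in the average of each pair.

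Rpl3l (chr17:24727820-24736143), the form of Rpl3 found in skeletal and heart muscle, followed the muscle transcripts. It was at 680, 5507, 4.2, 7.98 and 720 normalized counts in d3/d3 females on CR, against 12.9, 4.79, 469, 0 and 46.8 on AL. The groups overlapped, and no diet pair passed (log2 fold changes of 0.35, 3.22, 1.59 and -0.07). Across the 40 libraries its log2 level had a Pearson correlation of 0.97 with the muscle level, while the mean log2 level of all members had one of 0.09; both are descriptions over libraries that share their depth and scaling. Rps27l and Rpl36al, close relatives of Rps27 and Rpl36a, rose in the average over pairs by 0.19 (adjusted p = 0.0426) and 0.22 (adjusted p = 0.00934). Their percentages of Rps27 and Rpl36a overlapped between CR and AL in every pair.

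For the difference in diet response between groups, no member passed the adjusted threshold in limma on log2(value + 1) over all 40 libraries without weights or covariates. In females the diet change in d3/d3 mice minus that in WT mice had a median of 0.49 over the members and was positive for 74 of 78. Because most members varied together from liver to liver, counts of members here are not of separate observations. With limma, 0 members were called, beside 0% of all genes tested, and 64 had an unadjusted p under 0.05, beside 11.1% of all genes (lowest adjusted p = 0.194). In WT mice the diet change in males minus that in females had a median of 0.39, with 0 members called, beside 0.348% of all genes, and 46 with an unadjusted p under 0.05, beside 11.2%. Rpl22 came nearest there, at 0.52 ± 0.12 (SE, adjusted p = 0.0506), and edgeR called 1 member. That count depended on the fit: it was 24 with library weights (2.39% of all genes), 10 with the length index described below as a covariate (0.610%) and 8 without CR male replicate 3 (0.450%). In males the d3/d3 minus WT difference had a median of -0.08, with 0 called (0.0218% of all genes) and 0 at an unadjusted p under 0.05 (4.04%). In d3/d3 mice the male minus female difference had a median of -0.18, with 0 called (2.09%) and 6 at an unadjusted p under 0.05 (16.4%); library weights gave 2. Without AL replicate 3 of the WT females, the library with the highest summed level of its group, the median log2 fold change on CR in WT females was 0.07, and 1 member rose.

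Transcript length moved with several of these results. Members are short, with a median principal transcript of 680 bases, and 58 of the 77 with a length had 1000 bases or less. Among the genes tested outside the members, the median log2 fold change on CR in d3/d3 females was 0.37 for transcripts of 600 bases or less and -0.09 for those over 4000, and members of 600 bases or less had 0.56. In WT males the values were 0.18, -0.01 and 0.42. In d3/d3 males they were 0.08, 0.02 and 0.34, and in WT females -0.02, 0.07 and 0.01. The short members thus lay above other short transcripts in d3/d3 females, WT males and d3/d3 males.

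A library length index, the mean log2 level of other genes of 1000 bases or less minus that of genes over 4000 bases, had a Pearson correlation of 0.68 with the mean member level over the 40 libraries, which share depth and scaling. With this index as a covariate, an alternative chosen after seeing the data, 63 members rose in d3/d3 males, 19 in d3/d3 females, 57 in WT males and 1 in WT females, with medians of 0.36, 0.19, 0.34 and 0.04. Under the same fit 11.1%, 7.55%, 11.4% and 4.80% of all genes tested rose in these pairs. The female difference between genotypes then had a median of 0.14. The length index averaged -0.43 in d3/d3 females on CR and -0.74 on AL, the widest gap of the 4 pairs. Why length moves with the groups was not tested.

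**Figure D4:**
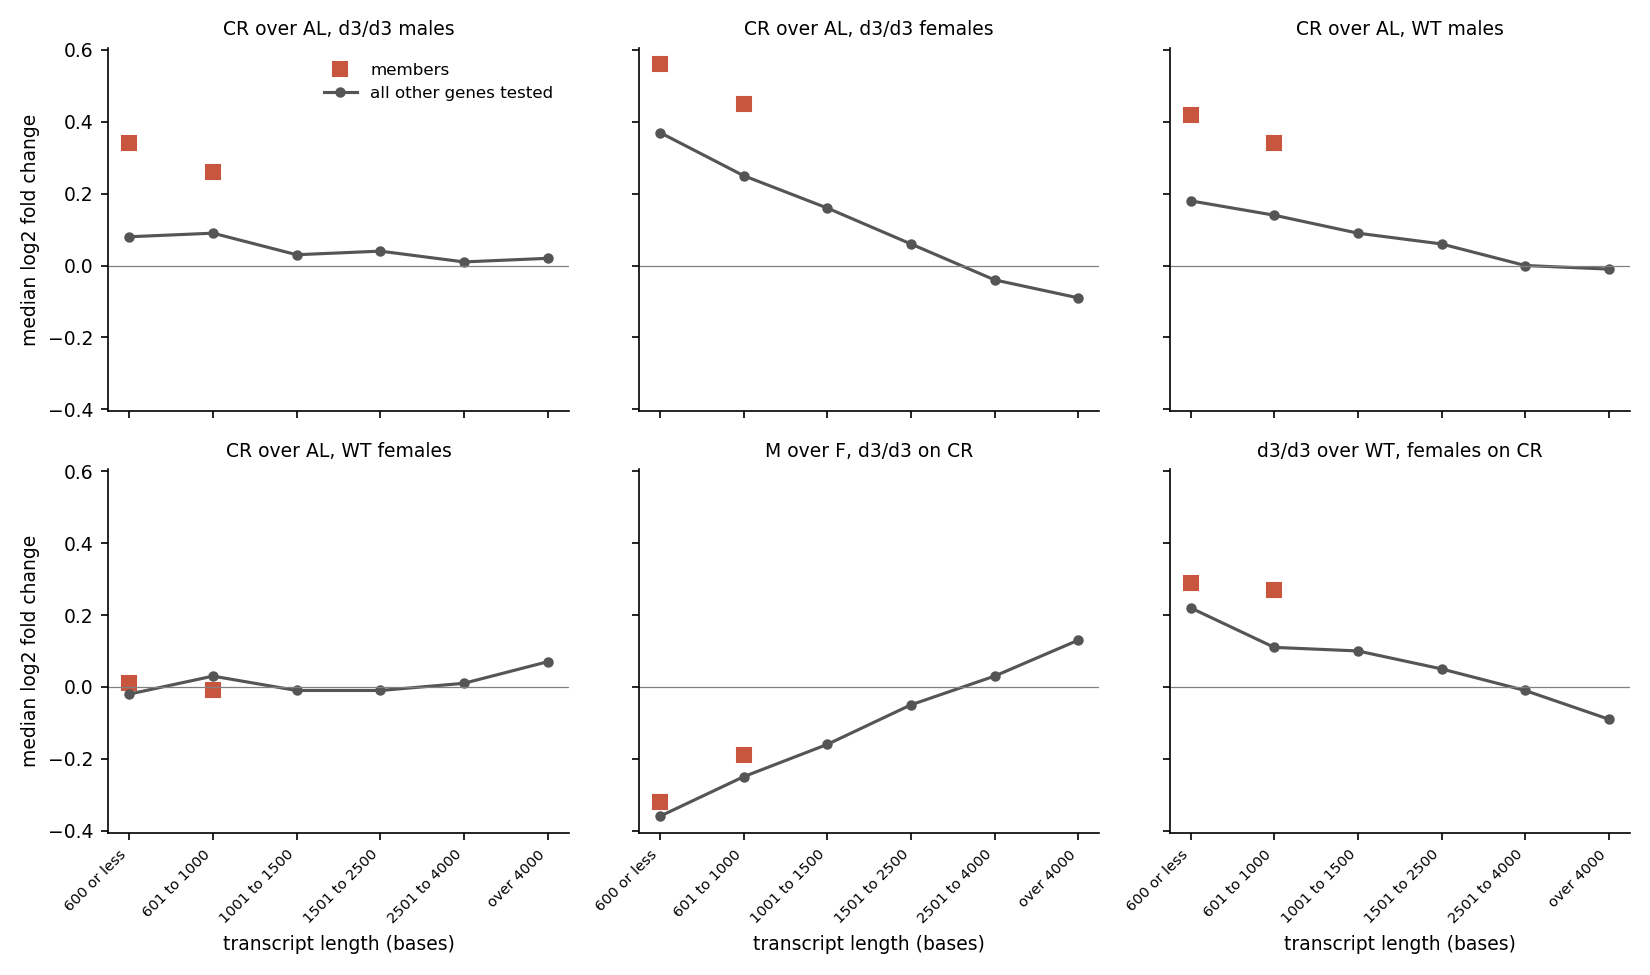
Median log2 fold change by principal transcript length in bases, for members (squares, the 2 shortest classes) and all other genes tested (circles), in 6 comparisons. In males on CR over AL the members stand above other short transcripts (0.34 against 0.08 in d3/d3 males at 600 bases or less), whereas for males over females in d3/d3 mice on CR they lie close to them (-0.32 against -0.36).

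For d3/d3 against WT, limma called 0 of 78 in CR males, CR females, AL males and AL females, beside 0.138%, 0%, 0.0436% and 0% of all genes tested, and 0 in the average over the 4 pairs, beside 0%. At an unadjusted p under 0.05 there were 18, 57, 2 and 30 members in the 4 pairs and 1 in the average, beside 8.03%, 7.45%, 8.14%, 6.35% and 7.02% of all genes. edgeR also called 0 in each. With library weights 8 members were called in CR males, beside 4.73% of all genes under the same weights, and 0 in the other comparisons. By sign alone, with no test, 75 of 78 were lower in d3/d3 CR males (median -0.18), 75 were higher in d3/d3 CR females (median 0.27), 72 were lower in d3/d3 AL males (median -0.11) and 72 were lower in d3/d3 AL females (median -0.21). Most members varied together from liver to liver, so these sign counts are not of 78 separate observations.

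Other transcripts of 600 bases or less had median genotype differences of -0.16, 0.22, -0.09 and -0.18 in the same order, and with the length index as a covariate the member medians were 0.03, 0.11, 0.00 and -0.04. In the authors' deposited table of d3/d3 against WT, 0 of the 78 members had an adjusted p under 0.05 in any pair, with 1 value missing in each. The authors' deposited table gave lowest adjusted p-values of 0.843 in CR males, 0.29 in CR females, 0.0606 in AL males and 0.44 in AL females. Its median log2 fold changes over the members were -0.15, 0.29, -0.14 and -0.23.

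Few members passed the test between the sexes. In d3/d3 mice on CR, 7 members were lower in males than in females, beside 3.62% of all genes tested (median -0.21): Rplp1, Rps14, Rps21, Rps27, Rpl35, Rpl35a and Rpl9, with log2 fold changes of -0.45, -0.78, -0.42, -0.43, -0.36, -0.42 and -0.35. In WT mice on CR, 7 were higher in males than in females, beside 2.56% (median 0.25): Rps4l, Rpl36al, Rps6, Rpl23, Rpl6, Rpl4 and Rpl23a, at 0.87, 0.55, 0.40, 0.37, 0.36, 0.35 and 0.34. On AL 0 members were called in d3/d3 mice (6.16% of all genes) and 0 in WT mice (6.48%), with 2 and 9 at an unadjusted p under 0.05 (19.7% and 19.3%), and edgeR called 0 in both.

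The difference between these sex effects, d3/d3 minus WT, was added after seeing the data. On CR it had a median of -0.45 and was negative for 77 of 78 members, with 0 called by limma (0.0145% of all genes) and 63 at an unadjusted p under 0.05 (11.3%). As above, members that vary together are not separate observations. With library weights 40 were called, beside 2.71% of all genes. On AL its median was 0.11, with 0 called (0%) and 1 at an unadjusted p under 0.05 (7.67%). Neither set of 7 calls was stable. In d3/d3 mice on CR the count of lower members was 0 without female replicate 3, male replicate 3 or male replicate 5, 2 without female replicate 4 or male replicate 2, and 12 without male replicate 4. In WT mice on CR the count of higher members was 0 without female replicate 3, 1 without female replicate 4 or male replicate 2, 4 or 5, 2 without male replicate 1, and 24 without male replicate 3. Fitted on the compared groups alone, both counts were 0. Other transcripts of 600 bases or less had medians of -0.36 in d3/d3 mice on CR and 0.02 in WT mice on CR. With the length index as a covariate 0 members were lower and 4 higher in d3/d3 males on CR, with a median of 0.16. Under it 33 were higher in WT males on CR, with a median of 0.24. For these alternative fits of the sex pairs the share of all genes called is not given. The counts therefore do not show a change particular to the members.

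Averaged over the 4 sex pairs, 3 members were higher in males than in females, beside 13.6% of all genes. Rps4l (chr6:148354656-148355598), an autosomal relative of the X-linked Rps4x, averaged 0.40 (adjusted p = 0.01), Rpl10 0.25 (adjusted p = 0.00712) and Rpl36al 0.21 (adjusted p = 0.0209). In WT mice on CR, Rps4l was at 552, 725, 464, 708 and 690 normalized counts in males, against 560, 389, 214, 291 and 321 in females, with an overlap through female replicate 1. Rpl10 was at 10012, 8939, 6475, 9730 and 8362 normalized counts in WT males on CR, against 8462, 8430, 4963, 7109 and 6652 in WT females on CR, which overlapped. When the values of its copies were added to Rpl10, its average sex difference was 0.07 and did not pass. The summed value cannot tell a difference in Rpl10 itself, diluted by its copies, from a division of reads among them.

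Other gene lists of protein synthesis held called genes in both directions. In the average over the diet pairs, 3 of 43 ribosome biogenesis genes rose and 17 fell (median -0.11), beside 23.2% of all genes tested that rose and 22.6% that fell: Tsr1, a 40S maturation factor, fell by 0.46 on the log2 scale (adjusted p = 5.87e-07), Nop16 by 0.40, Heatr1 by 0.34 and Pno1 by 0.32, whereas Rrp9 and Dkc1 rose by 0.42 and 0.38. The nucleolar protein gene Npm1 and the rRNA methyltransferase gene Fbl had log2 fold changes of 0.00 and 0.08 (adjusted p = 0.944 and 0.257). A list of 21 genes mixed RNA polymerase I subunits and factors with shared subunits and other transcription regulators, such as Sp1, Yy1, Gabpa and Nfx1. Of these, 7 rose and 4 fell (median -0.02), beside the same shares of all genes. The counts are thus not particular to RNA polymerase I. Polr2h and Nfx1 rose by 0.48 and 0.41, while Polr1e and Polr1a fell by 0.39 and 0.23.

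Among 25 initiation factors 2 rose and 9 fell (median -0.07), beside 23.2% and 22.6% of all genes tested. Eif1a fell by 1.21 on the log2 scale (adjusted p = 2.8e-10) and Eif5 by 0.40, while Eif4a2 rose by 0.24. Of 13 elongation factors and other TOP mRNAs 4 rose and 1 fell (median 0.10), beside the same shares of all genes: Eef1d rose by 0.25, Naca by 0.17 and Eif3f by 0.15, and the poly(A)-binding protein gene Pabpc1 fell by 0.28. Eef1a1 and Eef2, elongation factor genes whose mRNAs are known TOP mRNAs, had log2 fold changes of 0.00 and -0.06 (adjusted p = 0.989 and 0.362).

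Of 30 genes of the mTORC1 pathway and TOP mRNA control, 12 rose and 8 fell (median -0.02), beside 23.2% and 22.6% of all genes tested. The largest called changes were in Eef2k, the kinase that inhibits Eef2, which rose by 1.22 on the log2 scale (adjusted p = 5.47e-13), Flcn and Igf1r, which rose by 0.85 and 0.73, and Irs1, which fell by 0.68. Genes known to restrain the pathway went both ways: Castor1, Sesn1, Eif4ebp1 and Deptor rose by 0.59, 0.57, 0.34 and 0.24, and Sesn2 fell by 0.55 (adjusted p = 0.0014). Larp1, which binds TOP mRNAs, fell by 0.58 (adjusted p = 1.79e-14), and Rptor, the mTORC1 scaffold, by 0.39 (adjusted p = 2.94e-09). Mtor itself had a log2 fold change of -0.05 (adjusted p = 0.509). Of genes of the ribosome outside the symbol rule, Rack1 and Rps3a1 rose by 0.18 and 0.13, and Fau fell by 0.28.

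Most members varied together from liver to liver. The Pearson correlation of a member's log2 level with the mean of the other members, over 40 libraries that share depth and scaling, had a median of 0.92 and reached 0.8 or more for 60 members. For 10 members it was under 0.3: Rpl3l (-0.12), Rpl7l1 (-0.09), Rps10 (-0.09), Rpl3 (0.02), Rps14 (0.04), Rps4l (0.07), Rpl10a (0.09), Rps18 (0.18), Rpl10 (0.23) and Rpl27 (0.25). All 10 but Rpl7l1 are also among the members not called for diet. The genes outside the members with the closest pattern were Rps16-ps2, Gm11808 and Rps23-ps1 (0.948, 0.944 and 0.942 with the mean member level over 40 libraries), of which Rps16-ps2 and Rps23-ps1 are copies of ribosomal protein genes.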

How the data were processed

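Liver RNA was measured in 40 libraries, 5 per group, grouped by the genotype, treatment and sex labels; replicate numbers follow record order and pair nothing. Per the submitters' processing notes, FastQC, MultiQC, Trimmomatic, kallisto and DESeq2 were used with GRCm38; their versions are not named there. The deposited table holds a normalized signal per gene, and dividing each library by the step between its low values gave whole reads for 100% of values within a tolerance of 0.01. The authors also deposited log2 fold changes with adjusted p-values for d3/d3 against WT.

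Of 17839 rows, 115 repeats were dropped. Genes with a mean of 10 or more (13776) were tested with limma 3.58.1 in R 4.3.3 on log2(value + 1), all 8 groups in 1 fit with a trend, which understates changes of low genes. Benjamini-Hochberg adjustment ran over all of them, with a threshold of 0.05. Both fits were tested on simulated counts. In the average diet comparison edgeR 4.0.16 (quasi-likelihood, TMM) on the recovered reads called 66 members higher. Lengths and positions are from GENCODE M21, and promoters from RefSeq. Named genes were a set of canonical and paralog genes, up to 6 called members per direction and comparison with the largest change, the 5 highest and 5 lowest per kilobase, up to 4 called and 2 uncalled genes of each other list, and the 3 closest patterns; the text gives a selection. Pno1, Npm1, Fbl, Polr1a, Sesn1, Sesn2, Castor1, Deptor, Larp1, Rptor, Mtor, Eif4ebp1, Eef1a1, Eef2 and Rps12 were named after their values were seen. Members, lists and rules were chosen with earlier results of these data known. Alternatives were a pseudocount of 10, no filter, other scalings, library weights, the compared groups alone, edgeR, leaving out each library or the muscle-rich ones, and a muscle covariate. A length covariate, adding copies to their parent genes and the sex by genotype comparison were chosen after seeing the data.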

Additional observations from a re-analysis of the deposited data

Results flagged for a closer look

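Of 96 groups of 5 libraries examined, 12 held a library far from the other 4 by Dixon's gap test at the 95% level, which by chance alone marks about 1 group in 20. In WT females on AL, replicate 3 was far above the rest for the summed level of the members (565070 normalized counts, next 440200), Rps29 (8190, next 5549) and Rplp0 (14976, next 12668), and replicate 1 was far below for Rpl10 (5054, next 6928). Rpsa stood high in replicate 5 of d3/d3 males on AL (13067, next 11494).

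Rpl3l had 1 high library in 7 of the 8 groups. In normalized counts these were 635 in d3/d3 males on AL, 5507 in d3/d3 females on CR and 469 on AL, 1218 in WT males on CR and 225 on AL, and 2721 in WT females on CR and 559 on AL.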

How the results depend on the processing

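Most values kept their side of the threshold: of 3430 values of named members under the alternatives, 3161 kept direction and call, 264 kept direction and lost the call, and 5 reversed. The cause of each shift below was not tested. Counts below stand without the share of all genes called in the same fit, except where that share is given above. Without it, a shift in the members cannot be told apart from one over all genes. No paired analysis was possible because replicate numbers follow record order.

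Library weights gave 1 lower member on CR in d3/d3 males, 8 called for genotype in CR males, sex counts of 15 lower in d3/d3 mice on CR, 33 higher in WT mice on CR, 1 lower in d3/d3 mice on AL, 2 lower in WT mice on AL and 2 lower on average, and differences in diet effect between the sexes of 2 in d3/d3 and 24 in WT mice; the difference in sex effect between genotypes on CR gave 40. The compared groups alone gave 1 lower in the d3/d3 male diet pair, 0 lower in d3/d3 and WT females, and 0 for sex on CR in both genotypes. The muscle covariate gave 13 in each CR sex comparison, 2 lower in WT mice on AL, 1 lower on average and 4 for diet by sex in WT mice. A pseudocount of 10, TMM and edgeR each gave 1 for diet by sex in WT mice, and edgeR 1 lower for sex on average.

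Without the muscle-rich libraries, 2 members were higher on CR in d3/d3 males, 0 were lower in d3/d3 females, WT males and WT females, and sex gave 3 lower in d3/d3 mice on CR (median -0.36), 0 higher in WT mice on CR, 5 lower in WT mice on AL, and 1 higher and 3 lower on average. Medians were then -0.37 for diet by sex in d3/d3 mice, and -0.60 on CR and 0.26 on AL for sex by genotype. The length covariate gave 63 higher on CR in d3/d3 males, 19 in d3/d3 females (median 0.19) and 2 lower on average; genotype medians of 0.03 in CR males, 0.11 in CR females and -0.04 in AL females; for sex, 4 higher and 0 lower in d3/d3 mice on CR (median 0.16), 33 higher in WT mice on CR, 1 lower in WT mice on AL and 14 higher on average; medians of 0.14 for diet by genotype in females, 0.21 for diet by sex in d3/d3 mice (1 called) and -0.08 for sex by genotype on CR; and 10 for diet by sex in WT mice. Under it Rplp1, Rps21, Rpl35a, Rpl35 and Rps27 turned positive in d3/d3 males over females on CR (0.04, 0.02, 0.05, 0.04 and 0.02).

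Leaving out 1 library at a time gave 15 to 35 higher members on CR in d3/d3 males, 49 to 65 in d3/d3 females, 34 to 54 in WT males, and 0 to 1, 0 to 1, 0 to 1 and 0 to 2 lower members in d3/d3 males, d3/d3 females, WT males and WT females. On average 1 to 2 were lower. For sex it gave 0 to 12 lower in d3/d3 mice on CR, 0 to 24 higher in WT mice on CR, 0 to 1 lower in WT mice on AL and 0 to 2 lower on average, and for diet by sex in WT mice 0 to 8, the 8 without CR male replicate 3.

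Depth was ample for most members, but Rps10 and Rps14 rest on few reads, and values of members with near-identical copies depend on how reads were divided.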
